A study of Homo sapiens with 11 samples.

Results

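The segment described here is a 24 Mb stretch of the distal long arm of chromosome 8 (chr8:119000000-143000000, GRCh38). Its members are all peaks of 9 deposited peak lists whose start falls between these positions, so they were chosen by position and not by height. They number 3073 of the 134925 peaks in all lists, and another 4172 peaks lie on the rest of chromosome 8. The peaks come from chromatin immunoprecipitation followed by sequencing (ChIP-seq) in the human cell line SK-N-MC, which was established from an Ewing sarcoma; all samples are labelled wildtype and the labels name no treatment. One list each was used for the chromatin proteins CHD4, MTA2, HDAC2 and RBBP4, for FLI1, and for the histone marks H3K27me3, H3K4me1, H3K27ac and H3K4me3, and 2 input libraries were not analysed here. CHD4 was pulled down with a Flag antibody, so its list reads a tagged protein, although the sample carries the wildtype label and the labels do not describe the tag.

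CHD4, a nucleosome-remodelling ATPase, HDAC2, a histone deacetylase, MTA2, a scaffold protein, and RBBP4, a histone-binding protein, are subunits of the nucleosome remodelling and deacetylase complex (NuRD). FLI1 is an ETS transcription factor and supplies the DNA-binding domain of the EWSR1::FLI1 fusion that drives Ewing sarcoma. Trimethylated H3K4 marks promoters, monomethylated H3K4 marks enhancers and their flanks, acetylated H3K27 marks active promoters and enhancers, and trimethylated H3K27 is laid down by Polycomb repressive complex 2. The segment holds MYC, a proto-oncogene that drives growth, and gain of chromosome 8 is a frequent secondary change in Ewing sarcoma.

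Each target had 1 list, so no difference below has a replicate check and no test over samples was possible. Intervals are 95% Wilson intervals for shares and order-statistic intervals for medians, they cover counting error over peaks or genes only, and peaks are not replicates. Fold enrichment, the height of a peak's summit over the local background, and −log10 p, the strength of the call against that background, are the authors' values and were compared only within a list. The labelled cell type was checked on marker genes: an H3K4me3 peak lay within 1 kb of an end of 5 of 6 Ewing sarcoma genes (all but CD99), 0 of 4 blood genes, 1 of 4 epithelial genes (KRT8) and 0 of 4 skeletal muscle genes. FLI1 peaks lay within 100 kb of 6 of 6 Ewing sarcoma genes, 1 of 4 blood genes, 0 of 4 epithelial genes and 0 of 4 skeletal muscle genes. H3K27ac was at an end of 5 of 6 Ewing sarcoma, 1 of 4 blood, 1 of 4 epithelial and 0 of 4 skeletal muscle genes. Among all protein-coding genes outside the segment, 56.8% had H3K4me3 and 39.2% H3K27ac at an end. The share of all genes with FLI1 within 100 kb was not counted. With 4 to 6 genes per group these counts are a coarse check of the label.

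The segment held 26.9% of all H3K27me3 peaks of the genome, 919 of 3420 (interval 25.4 to 28.4%), and 96.7% of those on chromosome 8. This amounted to 38.3 H3K27me3 peaks per Mb in the segment, against 0.860 per Mb in the rest of the genome. The segment was set beside 2522 other stretches of 24 Mb, which were placed at steps of 1 Mb and so overlap each other. Of these, 0 held as many H3K27me3 peaks, and the fullest, on chromosome 7 from 136 to 160 Mb, held 188. In covered length the segment held 35.3% of the list, with 839 kb of H3K27me3 peaks in the segment and 1539 kb in the rest of the genome. No other list was concentrated to this degree.

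All 4 NuRD subunits, FLI1 and the enhancer mark H3K4me1 were also denser in the segment than elsewhere. CHD4 had 322 of its 13288 peaks there (2.42%, interval 2.18 to 2.70%), which is 13.4 per Mb in the segment and 4.46 per Mb in the rest. HDAC2 had 309 of 20633 (1.50%, interval 1.34 to 1.67%), at 12.9 per Mb in the segment and 6.99 per Mb in the rest. MTA2 had 254 of 13462 (1.89%), at 2.33 times the density of the rest, and RBBP4 had 236 of 13725 (1.72%), at 2.13 times. FLI1 had 29 of 1561 (1.86%, interval 1.30 to 2.66%), or 1.21 per Mb in the segment and 0.524 per Mb in the rest. H3K4me1 had 666 of 31247 (2.13%), at 27.8 per Mb in the segment and 10.5 per Mb in the rest.

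The promoter mark H3K4me3 went the other way, with 82 of 16089 peaks (0.510%, interval 0.411 to 0.632%), or 3.42 per Mb in the segment and 5.51 per Mb in the rest. Protein-coding genes were sparser there too, with 87 in the segment's 24 windows of 1 Mb and 19946 in the 2904 windows outside. The part of gene density in the H3K4me3 density was not tested. H3K27ac lay between H3K4me3 and the denser lists, with 256 of 21500 peaks (1.19%), or 10.7 per Mb in the segment and 7.31 per Mb in the rest. Other stretches of 24 Mb were at least as full as the segment in these lists. They numbered 8 of 2522 for CHD4, 11 for H3K4me1, 17 for FLI1, 26 for MTA2, 57 for RBBP4, 146 for HDAC2, 304 for H3K27ac and 1684 for H3K4me3. Because the stretches overlap, several can hold the same dense locus, so these are not counts of separate regions.

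**Figure D1:**
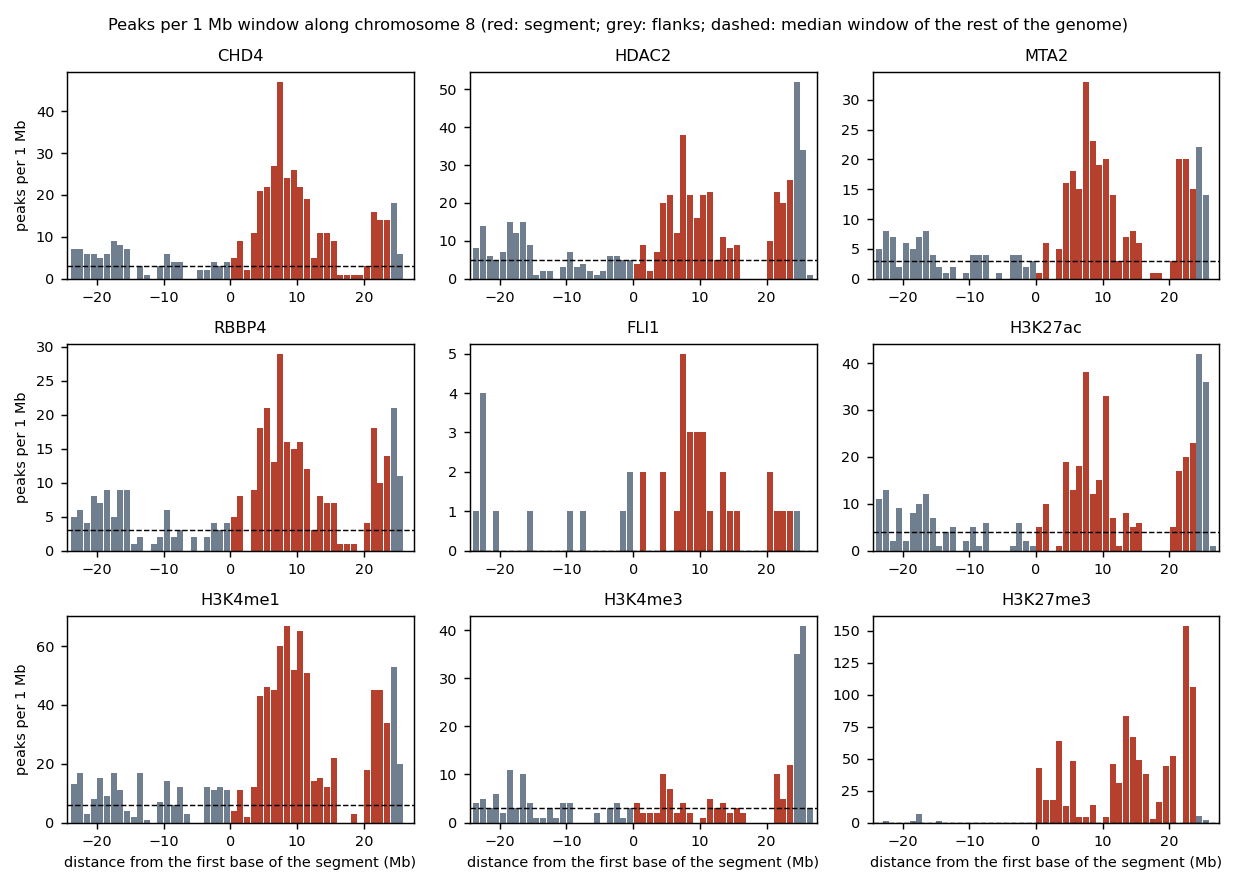
Number of peaks of each list in 1 Mb windows (vertical axes) against the distance from the first base of the segment in Mb, from 24 Mb before it to the chromosome's end, with the segment in red, its flanks in grey and the median window of the rest of the genome as a dashed line. H3K27me3 peaks are nearly all inside the segment, with 154 in its fullest window, while the NuRD subunits, H3K27ac and H3K4me1 form a first crest around 4 to 12 Mb and a second one at the distal end that continues into the flank.

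Positions within the segment are given below as the distance from its first base. The lists followed 2 different patterns. The NuRD subunits, H3K27ac and H3K4me1 were concentrated from 4 to 12 Mb and again beyond 21 Mb. The NuRD subunits, FLI1 and H3K27ac had their fullest window at 7 to 8 Mb, where LRATD2 is the only protein-coding gene. It held 258 peaks in all, with 47 CHD4, 38 HDAC2, 33 MTA2, 29 RBBP4, 5 FLI1 and 38 H3K27ac peaks, and 4 H3K27me3 peaks. H3K4me1 was fullest in the next window, around POU5F1B and MYC, with 67 peaks. Between 16 and 20 Mb, a gene-poor stretch that holds KHDRBS3, FAM135B and COL22A1, there were 4 CHD4, 2 MTA2, 3 RBBP4 and 3 H3K4me1 peaks and no HDAC2, FLI1 or H3K27ac peak. That same stretch held 101 H3K27me3 peaks.

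H3K27me3 was fullest at 22 to 23 Mb, with 154 peaks in a window that holds DENND3, SLC45A4, GPR20, PTP4A3 and C8orf90. The last window of the segment held 106 H3K27me3 peaks, and the window at 13 to 14 Mb, around KCNQ3 and TG, held 83. It was at 0 at 9 to 10 Mb, where no protein-coding gene lies and CHD4 had 26 peaks. It was also at 0 at 21 to 22 Mb, the window of CHRAC1, AGO2 and PTK2, where HDAC2 had 23 peaks and H3K4me3 had 10. The last 2 windows were full in both patterns, and held 64 and 69 peaks of the NuRD subunits.

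Peaks of the segment were low in fold enrichment for their −log10 p. The median fold enrichment was 4.21 in the segment and 6.68 in the rest for MTA2, 3.28 and 4.68 for CHD4, 3.98 and 5.09 for HDAC2, and 3.28 and 4.28 for RBBP4. FLI1 had a median of 5.23 in the segment and 7.33 in the rest, with an interval of the segment's median, 3.67 to 7.51, that includes the value of the rest. The medians were 4.35 in the segment and 7.48 in the rest for H3K27ac, 4.26 and 6.03 for H3K4me1, and 4.94 and 6.59 for H3K27me3. For H3K4me3 they were 15.1 in the segment and 16.2 in the rest, and the interval of the segment's median was 11.7 to 17.4. Of the segment's peaks, 76.4% for CHD4 and 85.0% for MTA2 lay below the first quartile of fold enrichment of the rest of their list.

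The strength of the calls ran opposite. The median −log10 p was 154 in the segment and 65.9 in the rest for H3K4me3, 31.8 and 20.8 for HDAC2, 22.8 and 17.3 for CHD4, 20.7 and 14.4 for RBBP4, and 23.3 and 16.7 for H3K4me1. It was 20.03 in the segment and 17.9 in the rest for MTA2, 22.6 and 19.0 for FLI1, 14.6 and 13.7 for H3K27me3, and 25.7 in both for H3K27ac. Fold enrichment was lower among strong peaks alone as well. Among CHD4 peaks more than 30 units above the smallest −log10 p of the list, the 68 of the segment had a median fold enrichment of 4.51 and the 555 of the rest had 7.63. Among H3K4me1 peaks chosen the same way, the 127 of the segment had 5.92 and the 367 of the rest had 9.92.

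**Figure D2:**
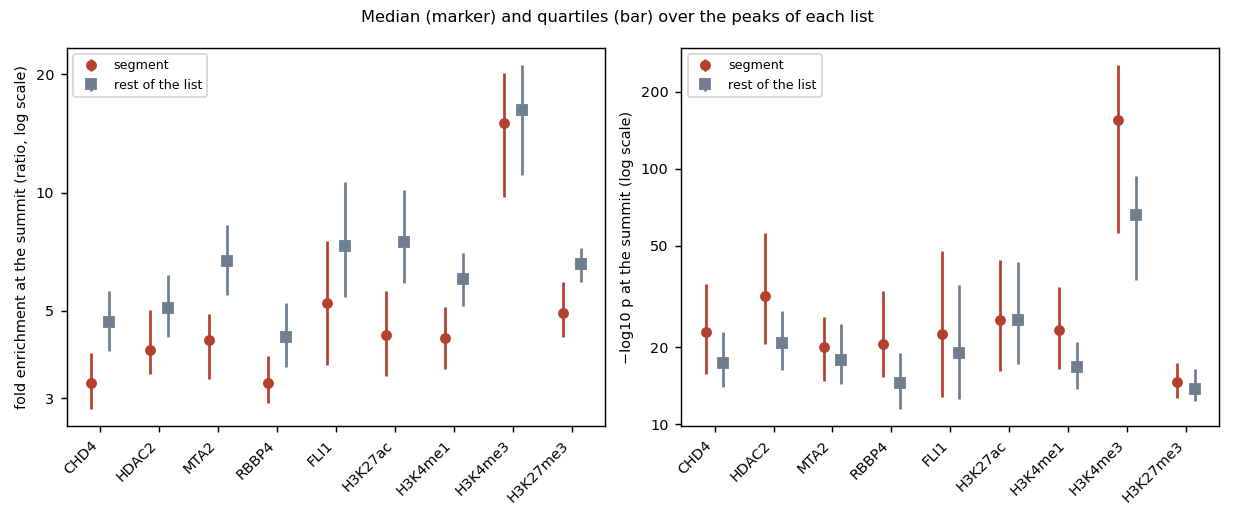
Fold enrichment (left, ratio) and −log10 p (right), both on log axes, for the peaks of the segment (red circles) and the rest of each list (grey squares), with markers at the median and bars from the first to the third quartile. In every list the segment's median fold enrichment is lower than that of the rest, by the least for H3K4me3, while its median −log10 p is higher than or, for H3K27ac, level with that of the rest.

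In 7 of the 9 lists the top 20 held more of the segment when ordered by −log10 p than when ordered by fold enrichment. Of the 20 H3K4me3 peaks of highest −log10 p in the genome, 20 lay in the segment, and of the 20 of highest fold enrichment, 0 did. For H3K4me1 the counts were 18 of 20 by −log10 p and 0 of 20 by fold enrichment, for HDAC2 14 and 0, for H3K27me3 11 and 0, for CHD4 7 and 0, for RBBP4 6 and 0, and for FLI1 3 and 0. MTA2 and H3K27ac had 0 of 20 by either value. The segment's H3K4me3 promoters thus lead their list by one value and are missing from its top by the other. Among the 100 peaks of highest fold enrichment the segment had 7 for H3K27me3 and 0 for each of the other lists.

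The local background under each peak was solved from its fold enrichment and −log10 p, in the units of the peak caller's pileup. Its median was 30.1 in the segment and 9.56 in the rest for CHD4, a ratio of 3.14 (interval 2.98 to 3.30). The ratios were 2.67 for HDAC2, 3.39 for MTA2, 2.93 for RBBP4, 2.98 for FLI1, 3.55 for H3K27ac, 3.35 for H3K4me1, 3.06 for H3K4me3 and 2.39 for H3K27me3. On the rest of chromosome 8 the background was between 0.755 and 0.997 times the median of the genome outside the segment. The background thus differed in the same direction in all 9 lists. The control used for the calls is not given, so lists may share a control library. The 9 ratios may therefore not be separate measures.

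This background had edges. Taken over all lists, its median ratio to the rest was 3.80 in the first window of the segment and 1.15 in the window before it. It was between 2.52 and 3.88 over the first 16 Mb, between 1.19 and 2.36 in the next 4 windows, where few lists had peaks, and between 1.59 and 2.44 in the last 4 windows. In the 2 windows beyond the segment it was 1.35 and 1.48, and over the whole distal flank the ratio was 1.59 for CHD4, 1.53 for RBBP4, 1.43 for HDAC2, 1.42 for MTA2 and between 0.955 and 1.31 for the other lists, so the background there was still raised for the NuRD subunits. In the flank of equal length before the segment the ratios of the lists ran from 0.860 to 1.06. Among windows with at least 5 HDAC2 peaks, 16 of 18 in the segment had a ratio of 2 or more, against 0 of 1561 in the rest. For CHD4 the counts were 18 of 18 windows in the segment and 2 of 1105 in the rest, and for H3K4me1 16 of 18 in the segment and 0 of 1600 in the rest. The number of copies of the segment was not measured by these lists, and its part in peak number, height and rank was not tested.

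**Figure D3:**
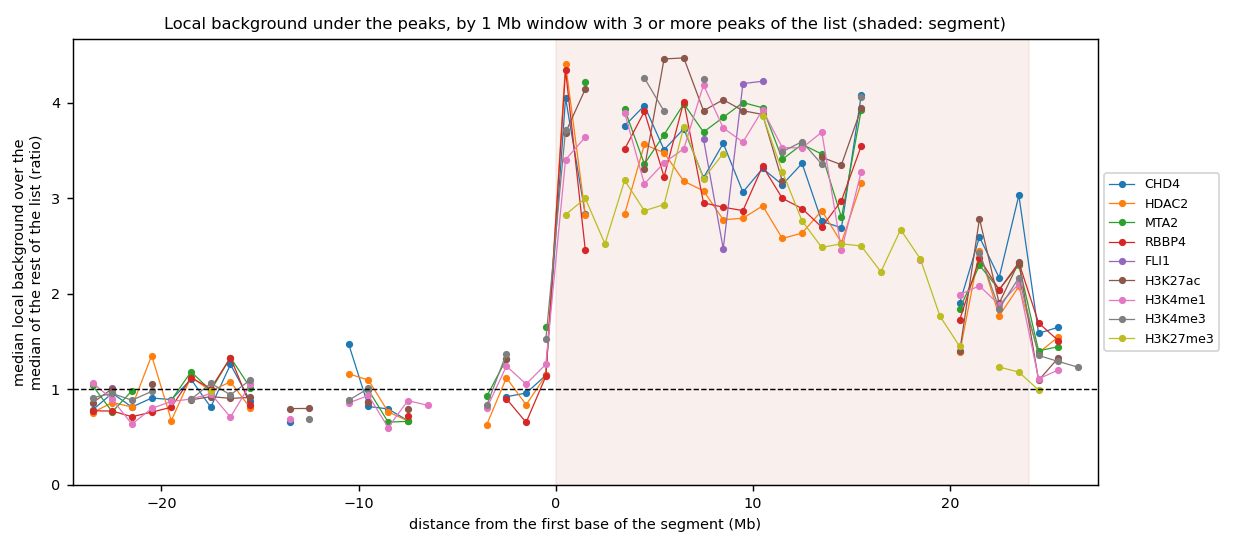
Median local background under the peaks of a list in each 1 Mb window with 3 or more peaks, divided by the median of the rest of that list (vertical axis, ratio; dashed line at 1), against the distance from the first base of the segment in Mb, with the segment shaded. The NuRD subunits, H3K27ac, H3K4me1 and H3K4me3 step up at the proximal border, medians over the lists lie between 2.52 and 3.88 for 16 Mb, and beyond the distal border they are 1.35 and 1.48. FLI1 has 4 windows in the segment and none near its borders, and H3K27me3 has none just before it.

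H3K27me3 differed from the other lists in the last block. From 20 to 24 Mb its background ratio was 1.24, while the other 8 lists had ratios from 1.69 to 2.44. Its 312 peaks in that block had a median fold enrichment of 6.21, close to the 6.59 of the rest of the list, whereas the 506 peaks from 0 to 16 Mb had 4.45 at a background ratio of 2.82.

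The dependence of the counts on this background was put into numbers by dividing pileup and background of the segment's peaks by the list's ratio and keeping the peaks that still reached the list's smallest −log10 p. With this scaling 132 of 322 CHD4, 218 of 309 HDAC2, 137 of 236 RBBP4, 20 of 29 FLI1 and 251 of 666 H3K4me1 peaks remained, at densities between 0.993 and 1.59 times those of the rest. For MTA2 46 of 254 peaks remained and for H3K27ac 109 of 256, and their densities in the segment then fell below those of the rest, at 0.422 and 0.621 times. H3K4me3 kept 71 of 82. H3K27me3 kept 91 of 919, at 4.41 times the density of the rest. With a ratio of its own for each of the blocks at 0 to 16, 16 to 20 and 20 to 24 Mb, H3K27me3 kept 337 peaks, at 16.3 times the density of the rest, of which 293 lay in the last block. The excess of H3K27me3 over the rest of the genome was present in each version, and its density was 44.5 times that of the rest as deposited, 16.3 times with a ratio per block and 4.41 times with 1 ratio. These scalings were chosen after the values had been seen.

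H3K27me3 peaks of the segment formed long chains. Merged within 5 kb they made 318 regions in the segment and 1481 in the rest, and 17 of the 20 regions of greatest covered length in the genome lay in the segment. The longest of all, chr8:141576084-141622079, held 24 peaks that covered 25.3 kb, and lay between genes, with C8orf90 as the nearest at 57.4 kb. The next, chr8:124049930-124073373, held 10 peaks over 17.1 kb inside FER1L6, a member of the ferlin family of membrane proteins. The region chr8:141636248-141667315, the fourth in the genome, covered 16.3 kb, chr8:142118958-142139782 covered 13.5 kb, and chr8:141517359-141547319, over C8orf90, covered 13.3 kb. The region over C8orf90 also met CHD4, HDAC2 and RBBP4, with an HDAC2 peak of 10.5-fold within its span that overlapped no H3K27me3 peak, and the other 4 met no peak of another list. Of the segment's H3K27me3 peaks 33.4% (307 of 919) overlapped a protein-coding gene, against 53.2% in the rest of the list, and 26 (2.83%) lay within 1 kb of a gene end, against 22.8% in the rest. Genes were sparser in the segment, and the part of this in both shares was not tested.

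The strongest H3K27me3 peaks, by contrast, lay at gene ends. By −log10 p the first 3 of the whole list were in the segment, at KHDRBS3, which encodes an RNA-binding splicing regulator (−log10 p 53.2, fold enrichment 9.89), at SNTB1, which encodes a syntrophin of the dystrophin complex (52.8 and 8.21), and at ZHX2, which encodes a zinc-finger and homeobox repressor (50.0 and 6.26). Each of these 3 peaks overlapped an H3K4me3 peak. Yet overlap with H3K4me3 was rare over the whole set, at 9 of 919 H3K27me3 peaks (0.979%, interval 0.516 to 1.85%), against 12.2% of those outside the segment. With the scaled background it was 8.79% (interval 4.52 to 16.4%), which includes the share outside. With NuRD it was 7 of 919 (0.762%), against 4.16% outside. Among the 420 sites of the segment merged from peaks of the 4 subunits the order was reversed. Of these sites 10 met H3K27me3 (2.38%, interval 1.30 to 4.33%), against 0.350% outside. H3K27me3 peaks were far denser in the segment, and the part of density in these shares was not tested. Seen from H3K4me3, 9 of its 82 peaks in the segment overlapped H3K27me3 (10.98%, interval 5.88 to 19.6%), against 1.76% outside.

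Peaks of the 4 NuRD subunits merged into 420 sites in the segment, of 28995 in the genome. All 4 subunits were present at 134 of the 420 (31.9%, interval 27.6 to 36.5%), against 16.7% of the sites outside. With the background scaled to the rest of each list this share was 12.6%, which is below that of the rest. The scaling kept 46 of 254 MTA2 peaks in the segment and left the rest as deposited. The loss of MTA2 peaks by itself limits the sites with all 4 subunits, so the scaled share cannot decide the direction of this difference. A single subunit was found at 32.1% of the sites of the segment and 45.8% of those outside. Between single lists, 67.3% of HDAC2 peaks of the segment overlapped CHD4, against 38.4% outside, and 89.0% of RBBP4 peaks overlapped CHD4, against 60.9% outside. Seen from CHD4 the gaps were smaller. Of its peaks in the segment 71.4% overlapped HDAC2, against 63.3% outside. For RBBP4 the share was 64.3% (interval 58.9 to 69.3%), against 61.7%, which is within counting error. CHD4 peaks were denser in the segment, and the part of density in these overlaps was not tested.

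NuRD sites of the segment lay in H3K4me1 chromatin more often than elsewhere and in H3K4me3 chromatin less often. H3K4me1 overlapped 305 of the 420 sites (72.6%, interval 68.2 to 76.7%), against 27.2% outside. H3K4me3 was present at 81 sites (19.3%), against 42.0% outside, and H3K27ac at 162 (38.6%), against 45.3% outside. Sites with none of these 3 marks made up 14.8% in the segment and 26.3% outside. For H3K4me1 the individual subunits showed the same, since it overlapped 68.9% of CHD4 peaks of the segment, against 35.1% outside, 74.8% of HDAC2 peaks, against 23.7% outside, 74.4% of MTA2 peaks, against 30.7% outside, and 64.0% of RBBP4 peaks, against 17.7% outside. For H3K4me3 they differed: it overlapped 25.9% of HDAC2 peaks of the segment, against 50.0% outside, 25.2% of MTA2 peaks, against 35.6%, and 34.3% of RBBP4 peaks, against 42.4%, but 23.6% of CHD4 peaks, against 22.8%, which is within counting error. H3K27ac overlapped 43.4% of HDAC2 peaks of the segment, against 49.8% outside, while the shares of CHD4 peaks (47.2%, against 45.7%), MTA2 peaks (50.8%, against 51.3%) and RBBP4 peaks (53.0%, against 48.7%) lay within counting error of those outside. With the scaled background H3K4me1 overlapped between 56.0% and 69.7% of the peaks of each subunit in the segment.

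The active marks were likewise met by NuRD more often. At least 1 subunit overlapped 75.8% of H3K27ac peaks of the segment, against 62.1% outside, and 92.7% of H3K4me3 peaks, against 66.3% outside. The gaps were wider for CHD4 alone. It overlapped 157 of 256 H3K27ac peaks of the segment (61.3%), against 27.1% outside, and 54 of 82 H3K4me3 peaks (65.9%), against 16.3% outside. H3K4me3 peaks carried H3K4me1 in 41 of 82 cases in the segment (50.0%, interval 39.4 to 60.6%), against 4.53% outside. The segment's peaks were wider, with median widths of 1490 bp in the segment and 1199 bp in the rest for H3K4me3, and 810 and 567 bp for H3K4me1. CHD4 and H3K4me1 peaks were also denser there, and the part of width and of density in these overlaps was not tested.

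The strongest CHD4 and RBBP4 peaks of the segment lay away from gene ends. The CHD4 peaks ranked 2, 3 and 4 in the genome by −log10 p were in the segment, 145 kb from LRATD2 (−log10 p 116), 586 kb from GSDMC, a gasdermin gene (99.7), and 80.2 kb from LRATD2 (92.0). The strongest RBBP4 peak of the segment, with 98.5 and ranked 4th in its list, overlapped the last of these. MTA2 differed, with its 2 strongest peaks of the segment at ends of THEM6 (58.6) and EFR3A (58.4), which encodes a membrane anchor of a lipid kinase. In the whole MTA2 list these 2 peaks ranked 232nd and 239th. The HDAC2 peak of highest −log10 p in the genome, chr8:141037548-141039584, lay 35.5 kb from PTK2, which encodes focal adhesion kinase, and had a fold enrichment of 10.5 and a −log10 p of 159. It overlapped CHD4, MTA2, RBBP4, FLI1, H3K27ac and H3K4me1, and as a merged site it ranked first in the segment by the mean rank of the 4 fold enrichments, and 469th of 4917 in the genome. The second such site of the segment lay inside TRAPPC9, which encodes a vesicle-trafficking protein, where fold enrichment was 8.29 for MTA2, 7.92 for HDAC2, 6.40 for RBBP4 and 6.25 for CHD4. The third was at THEM6, with 8.68 for HDAC2 and 8.57 for MTA2, and the 2 sites that follow lay 145 and 80.2 kb from LRATD2. After the peak near PTK2, the strongest HDAC2 peaks of the segment were 5.43 kb from ZFAT, which encodes a zinc-finger factor, with a −log10 p of 138, and at THEM6, with 121.

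All 3 strongest H3K4me3 peaks of the genome by −log10 p lay in the segment. The first, at WASHC5 and NSMCE2, had a −log10 p of 378 and a fold enrichment of 23.04, and the second, 19.6 kb inside ATAD2, had 345 and 27.4. NSMCE2 encodes a SUMO ligase of the SMC5/6 complex, WASHC5 the strumpellin subunit of an actin-nucleating complex, and ATAD2 a bromodomain ATPase. The third was at MYC, with 320 and 20.9. For H3K4me1 the 3 strongest were in TATDN1 (97.5 and 9.65), 147 kb from LRATD2 (92.5 and 6.87) and in ST3GAL1, which encodes a sialyltransferase (83.1 and 10.97). The strongest H3K27ac peak of the segment, at ASAP1, a regulator of ARF GTPases, had a −log10 p of 149 and a fold enrichment of 11.8, and ranked 49th in the list.

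FLI1 peaks of the segment were few, and 27 of 29 overlapped at least 1 NuRD subunit (93.1%, interval 78.0 to 98.1%), against 85.4% outside, which lies inside that interval. With the scaled background the share was 80% (interval 58.4 to 91.9%), below that outside. H3K27ac was met by 16 of 29 (55.2%), against 49.2% outside, and H3K4me1 by 15 of 29 (51.7%, interval 34.4 to 68.6%), against 7.18% outside. H3K4me1 peaks were denser and wider in the segment, and the part of this in their overlap with FLI1 was not tested. None of the 29 overlapped H3K27me3, which was also true of the 1532 FLI1 peaks outside. The FLI1 peak of highest −log10 p in the genome, chr8:128294070-128294546, was in the segment, 551 kb from MYC, the nearest protein-coding gene, with a −log10 p of 193 and a fold enrichment of 13.1. It overlapped all 4 subunits, H3K27ac and H3K4me1. Another, 9.02 kb from LRATD2, had 165 and 14.0, and the next, 146 kb from LRATD2, had 113 and 8.61.

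Of the 10 strongest FLI1 peaks of the segment, 9 overlapped all 4 subunits. Among all 29, CHD4 was met by 79.3%, against 68.6% outside, and HDAC2 by 89.7%, against 70.6%. MTA2 was met by 82.8%, against 77.1% outside, and RBBP4 by 72.4%, against 67.8%. The share of FLI1 peaks outside with all 4 subunits was not counted, so 9 of 10 has no such share beside it. After the 3 named above, the other 7 of the 10 strongest had −log10 p values between 35.2 and 74.2. They lay far from genes, as at 256 kb from GSDMC (74.2) and 69.2 kb from MYC (72.9), or nearer, as at 36.5 kb from PTK2 (52.5) and inside TMEM71 (47.7). The exception in NuRD overlap was the last, 133 kb from COL22A1 (35.2), which met HDAC2, RBBP4 and H3K27ac but neither CHD4 nor MTA2. Weak peaks were also occupied: those in SNTB1 (8.17), 32.0 kb from KLHL38 (9.12) and 67.3 kb from MYC (8.04) each overlapped all 4 subunits. The 2 FLI1 peaks without any subunit were 351 kb from LRATD2 (14.3) and at the shared end of JRK and PSCA (12.1), and the peak at JRK and PSCA met H3K27ac and H3K4me3.

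The gene table placed 87 protein-coding genes in the segment. An H3K27me3 peak lay within 1 kb of an end of 23 of them (26.4%, interval 18.3 to 36.6%), against 2.26% of the 19946 genes outside. H3K4me3 was at 50 (57.5%), against 56.8% outside, so its share did not differ beyond counting error although its peaks were less dense. For the NuRD subunits the counts were 34 genes with CHD4 (39.1%), against 10.4% outside, 49 with HDAC2 (56.3%), against 38.9%, 40 with MTA2 (46.0%), against 20.7%, and 40 with RBBP4 (46.0%), against 21.9%. H3K4me1 was at 32 (36.8%), against 7.55% outside, H3K27ac at 40 (46.0%), against 39.2%, and FLI1 at 3, C8orf76, JRK and PSCA (3.45%, interval 1.18 to 9.65%), against 0.842%. JRK and PSCA share a FLI1 peak, so the FLI1 share rests on 2 peaks. Seen from FLI1, 2 of its 29 peaks lay within 1 kb of a gene end (6.90%), against 8.81% outside. With the scaled background MTA2 was at 11.5% of the segment's genes, below the rest, and H3K27ac at 39.1%, level with it. H3K4me1 was then at 11.5% (interval 6.36 to 19.9%), which includes the share of the rest, CHD4 at 24.1% and H3K27me3 at 12.6% (interval 7.21 to 21.2%), both above the rest.

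**Figure D4:**
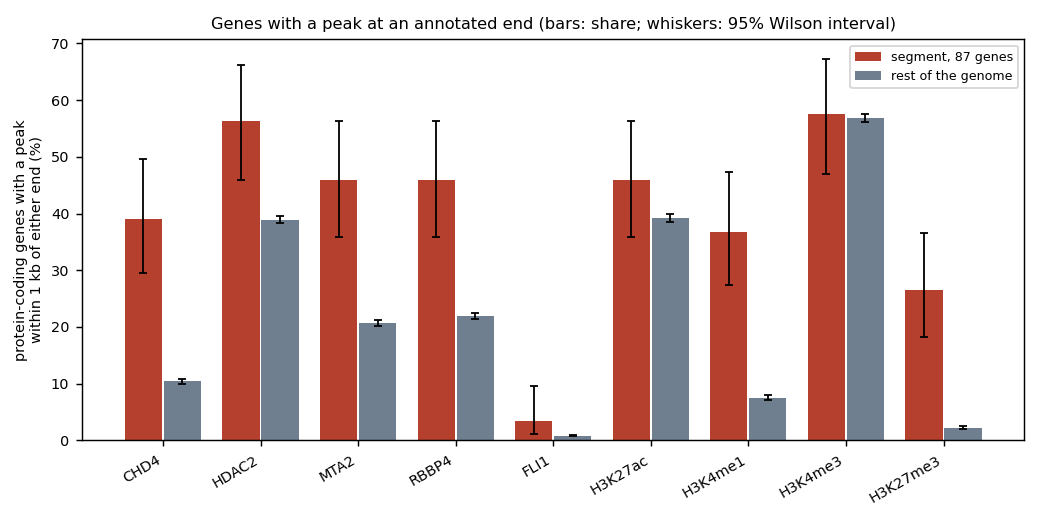
Share of protein-coding genes with a peak within 1 kb of either annotated end (vertical axis, percent) for each list, in the segment (red, 87 genes) and in the rest of the genome (grey), with 95% Wilson intervals as whiskers. As deposited, the shares are alike for H3K4me3, within the interval for H3K27ac, and higher in the segment for the NuRD subunits, FLI1, H3K4me1 and H3K27me3, the last at 26.4% in the segment and 2.26% in the rest. The FLI1 share of the segment rests on 2 peaks. With the scaled background MTA2 lies below the rest and the intervals of H3K4me1 and FLI1 include it.

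By these marks the genes fell into 4 classes. H3K4me3 alone was found at 41 genes, both marks at 9, H3K27me3 alone at 14 and neither at 23. Both marks were thus at 10.3% of the segment's genes (interval 5.54 to 18.5%), against 1.33% in the rest of the genome. The 9 genes with both marks were CCN3, DEPTOR, SNTB1, HAS2, ZHX2, MTSS1, KCNQ3, NDRG1 and KHDRBS3. Their H3K4me3 fold enrichment ran from 5.02 to 15.1 with a median of 11.1, while the 41 genes with H3K4me3 alone ran from 14.0 to 24.3 with a median of 20.1. These groups overlapped only between 14.0 and 15.1. HDAC2 was at 7 of the 9 genes with both marks and at 39 of the 41 with H3K4me3 alone, while H3K27ac was at 1 of the 9 and at 37 of the 41. In the rest of the genome HDAC2 was at 46.0% of genes with both marks and 66.1% of those with H3K4me3 alone, and H3K27ac was at 4.53% and 68.4% of these classes, so the lower H3K27ac share at genes with both marks was also found outside the segment.

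**Figure D5:**
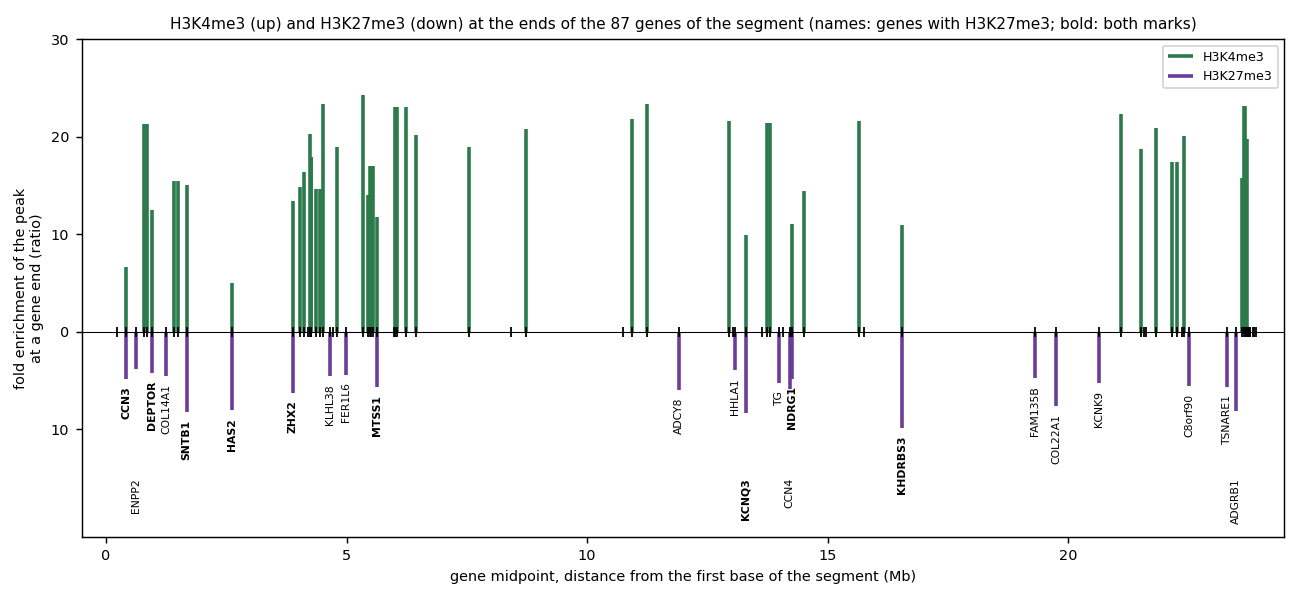
Fold enrichment (ratio) of the peak within 1 kb of a gene end for H3K4me3 (upward, green) and H3K27me3 (downward, purple) at the 87 protein-coding genes of the segment (ticks), placed by the distance of the gene's midpoint from the first base of the segment in Mb. Genes with H3K27me3 are named, and the 9 in bold carry both marks, with H3K4me3 between 5.02 and 15.1.

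The counts of the gene groups that follow stand against the shares over all genes: H3K4me3 was at 57.5% of the segment's genes and 56.8% of genes outside, HDAC2 at 56.3% and 38.9%, H3K27ac at 46.0% and 39.2%, CHD4 at 39.1% and 10.4%, and H3K27me3 at 26.4% and 2.26%. Genes for replication, chromatin and the cell cycle were uniformly in the H3K4me3 class. All 8 members listed had H3K4me3 and H3K27ac, 8 had HDAC2, 7 RBBP4, 6 MTA2 and 5 CHD4, and 0 had H3K27me3. TAF2, a subunit of the TFIID initiation factor, and DSCC1, a cohesion factor that loads the replication clamp, share a peak of 21.3-fold H3K4me3. CHRAC1, a histone-fold subunit of a chromatin remodeller, had 18.8-fold H3K4me3 with 6.53-fold HDAC2 and 7.59-fold MTA2. PHF20L1, a methyl-lysine reader, had 21.4-fold H3K4me3, a peak shared with the neighbouring TMEM71.

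Genes for mitochondria, lipid and protein turnover were alike, with H3K4me3, HDAC2 and RBBP4 at 8 of 8, H3K27ac at 6 and H3K27me3 at 0. SQLE, the squalene epoxidase of cholesterol synthesis, had 23.1-fold H3K4me3 and 5.19-fold HDAC2. FBXO32, a muscle ubiquitin ligase also called atrogin, had 23.4-fold H3K4me3 and 4.12-fold HDAC2 and neither H3K27ac nor CHD4. NDUFB9, a subunit of respiratory complex I, shared an H3K4me3 peak with TATDN1 that had a −log10 p of 306.

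Genes of the extracellular matrix and secreted proteins were mostly marked by H3K27me3, at 7 of 8, with H3K4me3 at 3 and CHD4 at 1. HAS2, the hyaluronan synthase, had 8.05-fold H3K27me3 and 5.02-fold H3K4me3. COL22A1, a collagen of tissue junctions, had 7.61-fold H3K27me3 at an end and 26 H3K27me3 peaks in its body. ENPP2, the secreted enzyme autotaxin, had 3.79-fold H3K27me3 and 21 peaks in its body. Of the matricellular signalling proteins, CCN4 had 5.87-fold and CCN3 had 4.84-fold H3K27me3. The exception was PSCA, which encodes a cell-surface antigen, with 23.2-fold H3K4me3 at an end it shares with JRK.

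Neuronal and ion channel genes resembled the matrix genes, with H3K27me3 at 6 of 8 and H3K4me3 at 2. KCNQ3, a potassium channel that dampens neuronal firing, carried 8.28-fold H3K27me3, 9.98-fold H3K4me3 and 10.1-fold HDAC2, taken over both ends. It had 44 H3K27me3 peaks in its body, more than any other gene of the segment. ADCY8, a calcium-stimulated adenylyl cyclase of the brain, had 5.95-fold H3K27me3 and 33 peaks in its body. ADGRB1, an adhesion receptor of the brain, had 8.08-fold H3K27me3, 5.84-fold HDAC2, 3.30-fold CHD4 and 7.01-fold H3K27ac, taken over both ends of a gene of 95.4 kb. These marks did not all coincide, since the site with these HDAC2 and CHD4 values met H3K27ac and no H3K27me3 peak. The 2 without H3K27me3 were ARC, an activity-induced synaptic gene with 15.8-fold H3K4me3, and LYNX1, a modulator of nicotinic receptors, which had no peak at its ends.

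Signalling and adhesion genes were mixed, with H3K4me3 at 9 of 10 and H3K27me3 at 3, the 3 being DEPTOR, an inhibitor of mTOR, NDRG1, a stress-induced growth regulator, and MTSS1, an actin-binding protein. PTK2 had the highest H3K27ac fold enrichment of the segment, 15.7, with 7.52-fold HDAC2 and 7.12-fold MTA2. TRIB1, a pseudokinase, had 20.2-fold H3K4me3. SLA, a blood-cell adaptor, had none of the 9 targets at its ends and 12 H3K27me3 peaks in its body. Among 6 transcription factor genes, ZHX1, ZHX2, ZFAT and MYC carried H3K4me3 with all 4 subunits, and POU5F1B and ZNF572 carried no peak at their ends. In the RNA group KHDRBS3 had both marks, TYW2, a tRNA-modifying enzyme listed as TRMT12, had 14.0-fold H3K4me3, and AGO2, the slicing Argonaute of RNA interference, had no peak at either annotated end. AGO2 was not free of marks, since its body held 4 H3K4me3, 5 H3K27ac, 12 H3K4me1 and 5 HDAC2 peaks. It also held 4 peaks each of CHD4, MTA2 and RBBP4.

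MYC, in the middle of the segment, had 20.9-fold H3K4me3, 6.42-fold H3K27ac, 5.88-fold HDAC2, 4.99-fold MTA2, 3.94-fold RBBP4 and 3.67-fold CHD4 at its ends and no H3K27me3. LRATD2, in the fullest NuRD window, had 18.9-fold H3K4me3 and 7.59-fold H3K27ac, with FLI1 4.76 kb away. Genes of the LY6 family near the distal border differed: LY6K had 6.21-fold CHD4, 5.93-fold RBBP4, 4.87-fold MTA2, 3.88-fold HDAC2 and 5.07-fold H3K27ac at its ends, SLURP1 had 3.37-fold H3K4me1, and LYPD2, LY6D, LYNX1 and GML had no peak of any target.

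At the proximal border the background over the median of the rest, for the first peak inside and the last peak before the segment, was 5.10 and 1.34 for HDAC2, 4.34 and 1.22 for RBBP4, and 4.05 and 1.54 for CHD4. It was higher inside in every list at this border, with values from 2.47 to 5.10 inside and from 0.913 to 1.68 before. The HDAC2 peaks were chr8:119832408-119833488 inside, with a fold enrichment of 3.48, and chr8:118126510-118127520 before, with 7.62. At the distal border the background of the last peak inside and the first peak beyond was 3.46 and 0.693 for HDAC2, 3.48 and 1.83 for RBBP4, and 4.00 and 1.30 for CHD4. H3K27me3 went the other way there, with 0.908 for the last peak inside, which started at 142929385, and 2.11 for the first beyond, which started at 143073205. Its first peak inside the proximal border started at 119417269 with 2.79, and its last before the segment at 104223887 with 0.913.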

How the data were processed

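Peak lists of 9 ChIP-seq samples of SK-N-MC were used, grouped by the target in the labels. Per the submitters' processing notes, the tools were bedtools 2.27.1, deepTools 3.2.1, SAMtools 1.9, BWA 0.7.17, FastQC 0.11.7 and Trimmomatic 0.36, with GRCh38 as the build. The name MACS2 stands in the deposited peak names. The version, the control used and any pooling are details not given in the sources used here. Each deposited peak has a fold enrichment (a ratio), a −log10 p and a −log10 q by the authors' peak caller. The −log10 q was not used. No read counts come with the lists, and the sequencing depth is therefore unknown.

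The segment and the gene lists were chosen with earlier results of these data known. Peaks were assigned by start, converted to 1-based positions, and overlapped by at least 1 bp. Windows of 1 Mb outside the segment counted when they held a gene or a peak (2904). Genes came from a RefSeq table of GRCh38 without strand, with 20033 protein-coding genes, so peaks within 1 kb of either end were counted. All 70 listed symbols were found, TRMT12 as TYW2, and GRINA lay outside the segment. Values at a gene end are the highest there.

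Local background was solved per peak as the Poisson mean at which both deposited values hold, the −log10 p and the fold enrichment with a pseudocount of 1, under the usual MACS2 definitions. On about 2000 simulated peaks per list recovered over true background had a median of 1. That checks the solving and not the definitions. Python 3.11.15, pandas 2.3.3 and scipy 1.17.1 were used.

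Peaks, windows and genes were named by rule: the 3 strongest peaks per list by either value, the fullest and emptiest windows, the 10 strongest FLI1 peaks, 5 sites, 5 H3K27me3 regions, border peaks and list members. The LY6-family genes, the weakest FLI1 peaks, other genes of named windows and genes that share a peak with a list member were named after their values were seen. Alternatives were a −log10 p minimum, equal list lengths, other segment bounds, other overlap and gene-end rules, no pseudocount, a chromosome 8 reference and, added after seeing the data, division by the background ratio.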

Additional observations from a re-analysis of the deposited data

How the results depend on the processing

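Of 175 values recomputed for 54 results, 94 stayed inside the counting interval of the reported value and 81 left it. The cause was not tested unless the setting itself removed peaks. With a −log10 p of at least 15 the segment held 2.92% of CHD4, 1.69% of HDAC2, 2.80% of RBBP4, 2.71% of H3K4me1 and 31.4% of H3K27me3 peaks. Median fold enrichment over the rest was then 0.667 for CHD4, 0.663 for RBBP4 and 0.680 for H3K4me1, 2.14% of H3K27me3 peaks overlapped H3K4me3 (19.9% in the rest) and 0% of genes had FLI1 at an end. Among the 2000 strongest peaks the segment held 29.0% for H3K27me3, 2.50% for H3K4me3, 11.8% for H3K4me1, 1.60% for H3K27ac, 5.00% for RBBP4, 2.15% for MTA2, 6.15% for HDAC2 and 6.05% for CHD4.

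The division by the background ratio was chosen after seeing the data. With 1 ratio per list the segment held 3.51% of H3K27me3, 0.814% of H3K4me1, 0.510% of H3K27ac, 1.29% of FLI1, 1.01% of RBBP4, 0.347% of MTA2, 1.06% of HDAC2 and 1.01% of CHD4 peaks. H3K4me1 then overlapped 56.0% of HDAC2 and 56.9% of RBBP4 peaks, H3K4me3 overlapped 8.79% of H3K27me3 peaks, and 12.6% of NuRD sites had all 4 subunits. Genes with a peak at an end were 24.1% for CHD4, 11.5% for MTA2, 1.15% for FLI1, 11.5% for H3K4me1 and 12.6% for H3K27me3. With a ratio per block it held 11.9% of H3K27me3, 0.885% of H3K4me1, 0.552% of H3K27ac, 1.23% of FLI1, 1.02% of RBBP4, 0.437% of MTA2, 1.08% of HDAC2 and 0.985% of CHD4 peaks.

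A segment 1 Mb wider on each side held 1.77% of HDAC2, 1.39% of H3K27ac, 2.34% of H3K4me1 and 0.746% of H3K4me3 peaks, and a narrower one 0.410% of H3K4me3 and 22.5% of H3K27me3 peaks. Against the rest of chromosome 8 alone, the ratio of median fold enrichment was 0.644 for CHD4, 0.730 for HDAC2, 0.687 for RBBP4, 0.669 for H3K4me1 and 0.765 for H3K27me3. The ratio of median background was then 3.91 for CHD4, 3.23 for HDAC2, 3.98 for MTA2, 3.89 for RBBP4, 4.14 for H3K27ac and 3.98 for H3K4me1. Among peaks within 3 units of the smallest −log10 p, median fold enrichment over the rest was 0.662 for MTA2, 0.696 for RBBP4 (9 peaks in the segment), 0.653 for H3K4me1 and 0.703 for H3K27me3. Without the pseudocount the background ratio was 2.94 for CHD4, 2.52 for HDAC2, 2.95 for MTA2, 2.75 for RBBP4, 3.16 for H3K27ac, 2.97 for H3K4me1 and 2.04 for H3K27me3.

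An overlap of at least 50% of the peak gave H3K4me1 at 54.7% of CHD4, 58.3% of HDAC2, 56.7% of MTA2 and 46.2% of RBBP4 peaks and H3K4me3 at 0% of H3K27me3 peaks. A summit inside the other peak gave 44.7%, 47.6%, 51.6% and 39.4% for H3K4me1 at CHD4, HDAC2, MTA2 and RBBP4. Within 5 kb of a gene end, 55.2% of genes had H3K4me1. With windows of 2 Mb the median per Mb was 9.75 for CHD4, 12.5 for HDAC2, 24.25 for H3K4me1 and 30.25 for H3K27me3, and all 9 medians stayed inside their intervals. No paired analysis was possible because each target had 1 list. Depth was unknown, so a site missing from a list may have been too shallow to call.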
